A study of Mus musculus with 14 samples.

Results

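Expression of 37 genes of stratified epithelium and the cornified envelope was examined in ovaries and uteruses of aged mice, out of 21853 genes with deposited values. The list holds non-keratin genes of squamous differentiation, and it was chosen by measured values: results from these same uteruses were already known when the genes were selected. No p-value is given for the uterus values of the 37 genes, and where a gene is said to meet the study's cutoffs there, that is a description and supports nothing. All mice were female C57BL/6J aged 28 weeks. Before the injections described next, every mouse, controls included, was given 2 gonadotropins of 10 IU each, 48 h apart, to align the estrous cycles. The cycle stage when the organs were taken is not given in the sources used here. The 4 mice of the old treatment (OT) group received human amniotic-membrane mesenchymal stem cell conditioned medium (AMSC-CM) through the tail vein, 1 µL per g in each of 6 injections 4 days apart. The 3 mice of the old control (OC) group received normal saline. The medium was pooled from 3 donors and concentrated on a 3 kDa filter, and the control injection was saline, not unconditioned medium. The study asked how AMSC-CM changes the transcriptome of each organ, and 1 ovary and 1 uterus library per mouse gave 14 libraries.

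Stratified squamous epithelium is a sheet of many cell layers, as in skin, mouth, oesophagus and vagina, while the lumen and glands of the uterine body are lined by a single layer of columnar cells. Basal cells of the stratified sheet depend on the transcription factor p63, and cells moving upward build strong desmosomes and, in the outermost layers, a cornified envelope in which transglutaminases cross-link precursor proteins beneath the membrane. In the rodent lower reproductive tract this programme is known to change with estrogen through the cycle. The 37 genes were ordered by role, with 7 envelope precursors, 10 genes of cell adhesion, 5 enzymes and protease inhibitors, 5 secreted or surface proteins, 3 transcription factors, and 7 genes of calcium binding, signalling, lipid synthesis or transport.

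Values were FPKM, that is, fragment numbers divided by transcript length and by each library's mapped total. Because length is divided out, levels of different genes can be compared, but the depth behind each value is unknown. The total FPKM lay between 374816 and 397644 in the ovaries. In the uteruses it lay between 425875 and 471907 except in OT1, which stood apart at 577494. Fits were limited to genes averaging 0.5 FPKM or more across an organ's 7 libraries, which left 29 of the 37 genes in the uterus and 17 in the ovary. Genes at or near 0 in OC uteruses, such as Ivl, Pkp1 and Lypd3, passed this filter through the OT uteruses alone. OT and OC were compared with limma on log2(FPKM + 0.1), and a gene was called, or met the cutoffs, at the study's limits, a change of 2-fold or more with p no higher than 0.05 before adjustment. Of all genes tested with limma, none had a Benjamini-Hochberg adjusted p under 0.05 between OT and OC in either organ, although 1160 uterus genes and 650 ovary genes had an unadjusted p under 0.05. The labels give no batch, and p-values measure the spread between these mice.

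In the uterus, 26 of the 29 genes over the filter had a mean log2 difference above 0 in OT against OC, with a median of 1.77 beside 0.01 over all genes tested. By the cutoffs 16 were higher in OT, where 2.23% of all tested genes were, and 1 was lower, where 0.664% of all tested genes were. In 14 genes all 4 OT uteruses stood above all 3 OC uteruses, beside 6.46% of all tested genes, and in 1 gene all stood below, beside 5.48%. Since the list was selected on these uteruses, these counts describe the choice of genes and are no evidence of their own. In whole tissue, a larger number of cells of one type and more RNA per cell cannot be told apart. The heat map of all 37 genes shows the 4 groups of libraries side by side.

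**Figure D1:**
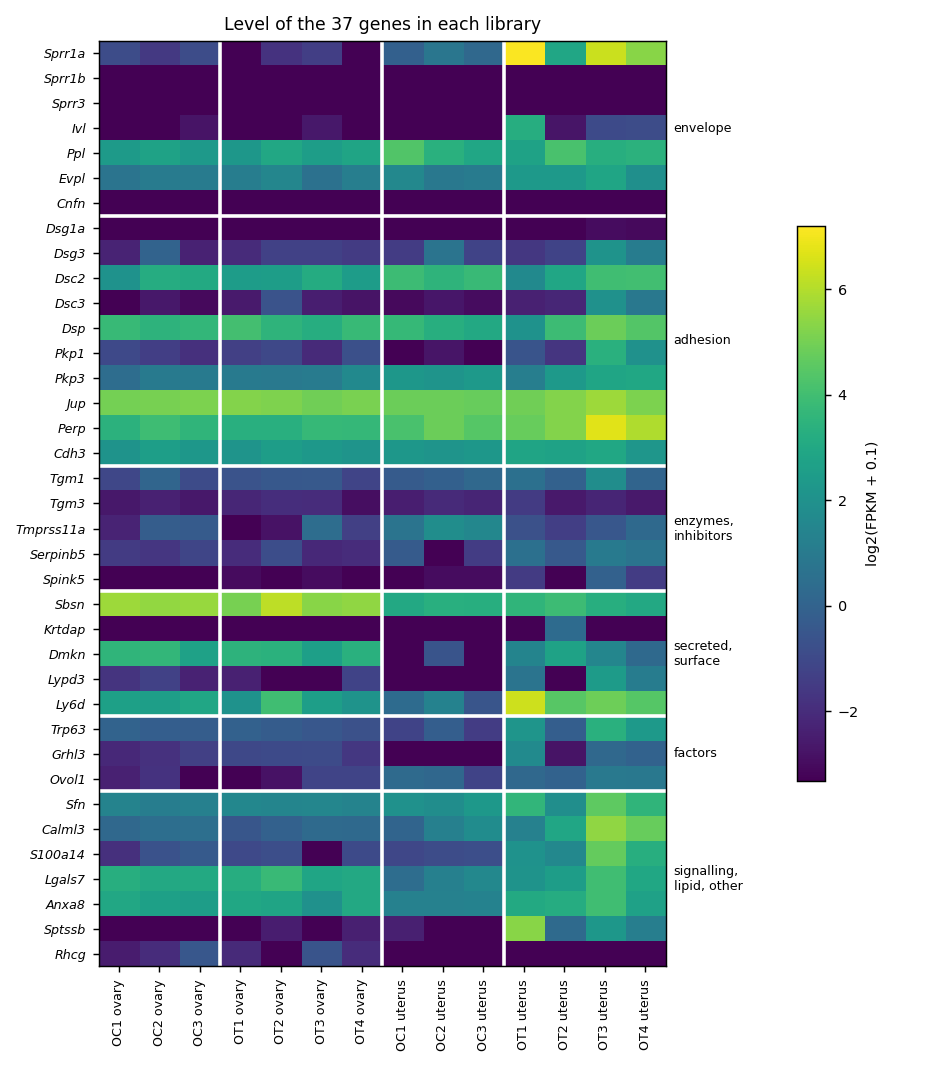
Level of each of the 37 genes (rows, ordered by role) in each of the 14 libraries (columns, grouped by organ and treatment), as log2(FPKM + 0.1) on the colour scale. Most rows are alike across the 7 ovaries, whereas Sprr1a, Ly6d, Perp and Calml3 are bright in OT uteruses, and Sprr1b, Sprr3 and Cnfn are at the floor throughout.

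The envelope precursors are the proteins that transglutaminases join into the envelope. Sprr1a, a small proline-rich precursor also known as a stress-response gene, stood at 0.827, 1.67 and 1.09 FPKM in the OC uteruses and at 139, 7.39, 80.99 and 39.6 FPKM in the OT uteruses. Every OT uterus was above every OC uterus, OT1 was the highest and OT2 the lowest of the 4, and the mean log2 difference was 5.10. Ivl, which encodes involucrin, an early scaffold of the envelope, was listed at 0 in all 3 OC uteruses and stood at 9.18, 0.0507, 0.408 and 0.439 FPKM in the OT uteruses. Involucrin thus reached more than trace level in OT1 alone, where the level was 22.5 times that in OT3, and without OT1 the gene falls under the filter. Evpl, the plakin envoplakin that ties desmosomes to the envelope, stood at 2.94, 1.74 and 1.96 FPKM in OC and 4.95, 4.96, 7.096 and 3.68 FPKM in OT uteruses, again without overlap, and its mean log2 difference was 1.18. Ppl, the partner plakin periplakin, stood at 20.3, 10.2 and 7.37 FPKM in OC and 6.65, 18, 9.61 and 10.7 FPKM in OT uteruses. Its groups overlapped widely, its highest value was in OC1, and its log2 difference was -0.12. Sprr1b, Sprr3 and Cnfn, the last encoding cornifelin, were listed at 0 in all 14 libraries, as were 3380 genes of the whole table. Sprr1a and Sprr1b are close copies, and how fragments shared between them were assigned is not given in the sources used here.

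Sprr1b, Sprr3, Sprr1a and Ivl lie within 136.9 kb of each other on chromosome 3, and all 4 are read from the minus strand. Their promoters are shown because 2 of these neighbours had signal in OT uteruses while the other 2 were at 0 throughout. Each sequence runs 5′ to 3′ on the gene's strand from 250 bases before to 50 bases after the start (RefSeq, GRCm38.p6, the build of mm10). Capitals mark matches to TGANTCA, on either strand, and to TATAAA, the TATA box, on the gene's strand. TGANTCA takes in TGAGTCA and TGACTCA, the core bound by AP-1 factors, but is wider than that core.
Sprr1b, chr3:92438730-92439029: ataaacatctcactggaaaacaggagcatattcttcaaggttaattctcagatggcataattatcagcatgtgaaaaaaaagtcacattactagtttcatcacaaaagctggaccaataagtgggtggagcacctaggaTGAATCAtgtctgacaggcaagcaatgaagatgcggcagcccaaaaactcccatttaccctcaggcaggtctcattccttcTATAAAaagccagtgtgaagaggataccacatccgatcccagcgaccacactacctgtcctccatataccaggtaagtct
Sprr3, chr3:92458671-92458970: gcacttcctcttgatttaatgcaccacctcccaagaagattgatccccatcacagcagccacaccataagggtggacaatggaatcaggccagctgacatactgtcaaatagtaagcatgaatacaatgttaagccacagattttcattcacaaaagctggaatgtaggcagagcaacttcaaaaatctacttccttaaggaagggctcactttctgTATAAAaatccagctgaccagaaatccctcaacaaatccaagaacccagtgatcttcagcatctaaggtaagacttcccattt
Sprr1a, chr3:92485832-92486131: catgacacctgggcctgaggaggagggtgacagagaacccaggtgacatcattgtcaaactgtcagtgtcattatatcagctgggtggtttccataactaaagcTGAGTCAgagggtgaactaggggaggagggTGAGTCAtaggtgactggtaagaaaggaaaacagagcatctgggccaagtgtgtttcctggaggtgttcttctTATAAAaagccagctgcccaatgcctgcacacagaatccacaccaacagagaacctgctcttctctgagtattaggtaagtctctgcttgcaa
Ivl, chr3:92573686-92573985: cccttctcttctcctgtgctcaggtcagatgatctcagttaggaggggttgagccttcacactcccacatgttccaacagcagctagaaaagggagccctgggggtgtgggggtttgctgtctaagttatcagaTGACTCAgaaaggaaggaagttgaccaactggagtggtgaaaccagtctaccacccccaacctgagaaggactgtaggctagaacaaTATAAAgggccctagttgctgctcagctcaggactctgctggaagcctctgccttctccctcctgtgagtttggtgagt

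All 4 windows held a TATA box, between 29 and 43 bases before the start as read from the sequence table, at -30 in Sprr1b, -33 in Sprr3, -43 in Sprr1a and -29 in Ivl. Sprr1a held 2 TGANTCA matches, at -146 and -116, Ivl held 1 at -116 and Sprr1b held 1 at -111, whereas Sprr3 held none. Sprr1b, at 0 in every library, matched both patterns, as Sprr1a and Ivl did. Its TGANTCA match read TGAATCA, which is not the AP-1 core. Those of Sprr1a read TGAGTCA and that of Ivl read TGACTCA, the same core on opposite strands. RefSeq windows were found for 21 of the 37 genes, 24 windows in all. TGANTCA occurred in 9 of these 24 (37.5%), beside 7.81% of 32851 windows of all genes, and both shares are of the wider pattern. The 9 windows belonged to 7 of the 21 genes, Sprr1a, Sprr1b, Ivl, Sbsn, Krtdap, Dmkn and Serpinb5. All but Serpinb5 lie in a gene cluster on chromosome 3 or 7, so the windows are not independent. TATAAA occurred in 6 of the 24 (25%) beside 8.32% of all windows. The palindrome AACCGGTT of grainyhead-like factors, searched on both strands, occurred in 0 of the 24 and in 0.146% of all windows. No TGANTCA match overlapped a TATA box in the 4 windows shown, and a match is a description of letters only.

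Among the 10 adhesion genes, 9 passed the filter in the uterus and 2 met the cutoffs, both higher in OT. Perp, a p63 target of the desmosome membrane, stood at 18.1, 28.2 and 21.3 FPKM in OC uteruses and 26.8, 38.1, 107 and 62.4 FPKM in OT uteruses. OT1 lay inside the OC range, OT3 and OT4 stood far above it, and the mean log2 difference of 1.20 lost its call without OC1, OC3, OT3 or OT4, being 0.85 without OT3. Pkp1, plakophilin 1, which strengthens desmosomes of the upper layers, stood at 0, 0.0497 and 0 FPKM in OC and 0.572, 0.209, 10.2 and 3.85 FPKM in OT uteruses. All OT uteruses were above the OC uteruses, with a log2 difference of 3.90 that was 3.03 without OT3.

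The desmosomal cadherins were highest in OT3 and OT4. Dsc3, desmocollin 3 of the basal layers, stood at 0.02196, 0.0545 and 0.0279 FPKM in OC and 0.0941, 0.116, 3.85 and 1.74 FPKM in OT uteruses. Dsg3, its desmoglein partner, stood at 0.261, 1.54 and 0.333 FPKM in OC and 0.222, 0.337, 4.09 and 2.06 FPKM in OT uteruses, where OT1 lay below the OC range and OT2 near its bottom. Dsg1a, desmoglein 1 of the uppermost layers, was listed at 0 except in OT3 and OT4 uteruses, at 0.0282 and 0.0219 FPKM. Dsc2, the desmocollin of simple as well as stratified epithelia, stood at 14.8, 11.5 and 13.9 FPKM in OC and 3.08, 7.397, 15.8 and 16.1 FPKM in OT uteruses. OT1 and OT2 were below every OC uterus and OT3 and OT4 above every one, so the log2 difference of -0.60 averages opposite positions.

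Other adhesion genes are found in many epithelia. Jup, plakoglobin of desmosomes and adherens junctions, stood at 28.9, 28.9 and 27.2 FPKM in OC and 30.2, 38.1, 49.95 and 35.2 FPKM in OT uteruses, without overlap and with a log2 difference of only 0.41. Dsp, desmoplakin, stood at 13.1, 9.55 and 8.14 FPKM in OC and 4.003, 14.9, 28.6 and 20.7 FPKM in OT uteruses. OT1 had the lowest desmoplakin of the 7 uteruses and OT3 the highest, and the log2 difference of 0.45 became 1.03, and called, without OT1. Pkp3, the plakophilin found in most desmosomes, ranged over 4.31 to 5.14 FPKM in OC and 2.15 to 7.58 FPKM in OT uteruses, with OT1 lowest. Cdh3, P-cadherin of basal cells, ranged over 4.21 to 4.68 FPKM in OC and 4.48 to 7.63 FPKM in OT uteruses. Neither met the cutoffs, with log2 differences of 0.07 for Pkp3 and 0.47 for Cdh3.

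**Figure D2:**
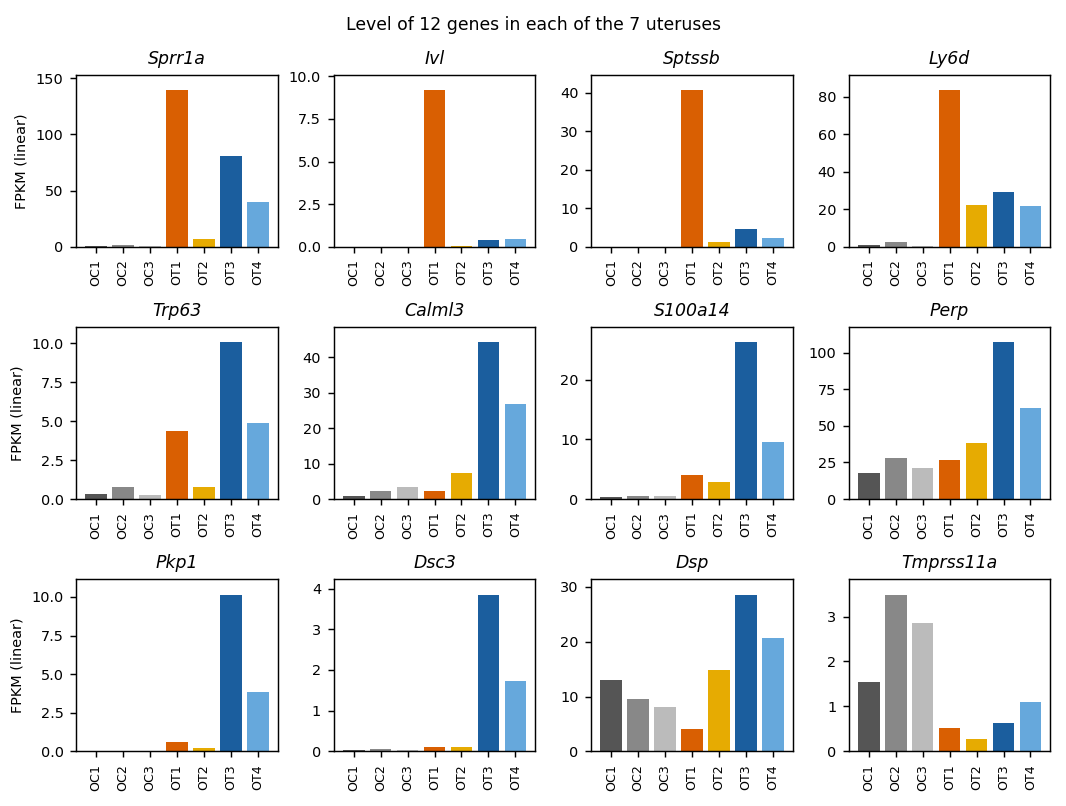
FPKM (linear axis from 0, a separate scale for each gene) of 12 of the genes in each of the 7 uteruses, 1 bar per library, with OC in greys, OT1 and OT2 in warm and OT3 and OT4 in blue colours. OT1 carries the tallest bar for Sprr1a, Ivl, Sptssb and Ly6d, OT3 the tallest for Trp63, Calml3, S100a14, Perp, Pkp1, Dsc3 and Dsp, and Tmprss11a is lower in all 4 OT uteruses.

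Of the 5 enzymes and inhibitors, 3 passed the filter in the uterus. Tmprss11a, a membrane serine protease of stratified epithelia, was the only gene of the 37 that met the cutoffs as lower, at 1.55, 3.49 and 2.85 FPKM in OC and 0.508, 0.283, 0.633 and 1.099 FPKM in OT uteruses. All OT uteruses were below all OC uteruses, and the log2 difference was -1.95. Serpinb5, maspin, a serpin of basal cells, stood at 0.718, 0 and 0.264 FPKM in OC and 1.36, 0.659, 1.94 and 1.56 FPKM in OT uteruses, and the groups overlapped through OC1. Tgm1, the membrane-bound transglutaminase that assembles the envelope, stood at 0.721, 0.841 and 1.09 FPKM in OC and 1.37, 0.852, 3.51 and 0.958 FPKM in OT uteruses. Only OT3 stood well clear of the OC range for Tgm1, whose log2 difference of 0.65 did not meet the cutoffs. Tgm3, the cytosolic transglutaminase, was at most 0.253 FPKM in any uterus. Spink5, which encodes the inhibitor LEKTI of epidermal kallikreins, was at most 0.865 FPKM, in OT3, and both were under the filter.

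Of the 4 secreted or surface proteins over the filter, 3 met the cutoffs as higher in OT uteruses, Ly6d, Dmkn and Lypd3. Ly6d, a GPI-anchored surface protein of keratinocytes, stood at 1.17, 2.47 and 0.593 FPKM in OC and 83.6, 22.3, 29.1 and 21.7 FPKM in OT uteruses. The groups were far apart, OT1 was 2.88 times OT3, and the log2 difference was 4.65. Dmkn, dermokine, stood at 0, 0.572 and 0 FPKM in OC and 2.62, 6.54, 2.78 and 1.12 FPKM in OT uteruses, and its log2 difference of 3.90 rests on OC values at or near 0. Lypd3, a Ly6-family adhesion protein of suprabasal cells, was listed at 0 in all OC uteruses and stood at 1.53, 0, 5.41 and 2.07 FPKM in OT1 to OT4, so that OT2 matched the controls. Sbsn, suprabasin, which shares a cluster of 39.63 kb on chromosome 7 with Krtdap and Dmkn, stood at 8.02, 9.904 and 9.52 FPKM in OC and 11.6, 14.8, 9.64 and 8.07 FPKM in OT uteruses. OT4 lay at the bottom of the OC range for suprabasin and the log2 difference was 0.24. Krtdap, a secreted peptide of differentiating keratinocytes, was listed at 0 in 13 libraries and stood at 1.198 FPKM in the OT2 uterus, which also had the highest Dmkn and Sbsn of the uteruses.

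Among the transcription factors, Trp63, the mouse p63 gene and the master regulator of stratified epithelium, stood at 0.331, 0.774 and 0.263 FPKM in OC and 4.396, 0.776, 10.1 and 4.902 FPKM in OT uteruses. OT3 was highest, OT2 was barely above the highest OC uterus, and the log2 difference was 2.87. Grhl3, a grainyhead-like factor needed for barrier formation, was listed at 0 in all OC uteruses and stood at 3.197, 0.0458, 1.07 and 0.877 FPKM in OT uteruses, with OT1 highest. Ovol1, a zinc-finger factor that restrains basal-cell growth, stood at 1.15, 1.06 and 0.333 FPKM in OC and 1.07, 0.888, 1.803 and 1.75 FPKM in OT uteruses, which overlapped, and its log2 difference was 0.73.

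The 6 genes of calcium binding, signalling and lipid synthesis that passed the filter met the cutoffs as higher in OT uteruses. Calml3, a calmodulin-like protein of stratified epithelium, stood at 0.9595, 2.29 and 3.38 FPKM in OC and 2.35, 7.43, 44.2 and 26.8 FPKM in OT uteruses. OT1 lay inside the OC range, and the log2 difference of 2.56 was 3.33 without OT1 and 1.94, and not called, without OT3. Sfn, 14-3-3 sigma, a p53 target of keratinocytes, stood at 3.89, 3.44 and 4.81 FPKM in OC and 12.1, 3.59, 23.7 and 11.7 FPKM in OT uteruses, with OT2 inside the OC range. S100a14, a calcium-binding protein of epithelia, stood at 0.378, 0.447 and 0.477 FPKM in OC and 3.96, 2.88, 26.3 and 9.59 FPKM in OT uteruses. The OC values of S100a14 were nearly equal and the lowest OT value was well above them, with a log2 difference of 3.81.

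Sptssb, a small subunit of serine palmitoyltransferase, the first enzyme of sphingolipid synthesis, stood at 0.0917, 0 and 0 FPKM in OC and 40.6, 1.15, 4.58 and 2.18 FPKM in OT uteruses. Its log2 difference, with a pseudocount of 0.1 and all libraries, was 5.28, the largest of the 29 genes, and OT1 stood at 8.86 times OT3. Without OT1 the log2 difference was 4.26, that is, 19.1-fold in place of 38.9-fold, and Sprr1a, at 4.53, was then above it. Lgals7, galectin 7 of stratified epithelia, ranged over 1.27 to 2.91 FPKM in OC and 4.101 to 15.6 FPKM in OT uteruses, and Anxa8, a calcium-dependent membrane-binding annexin, over 2.35 to 2.42 and 6.44 to 15.5 FPKM. Neither gene overlapped between groups, with log2 differences of 1.77 for Lgals7 and 1.92 for Anxa8. Rhcg, an ammonium transporter, was listed at 0 in all uteruses and reached at most 0.6195 FPKM in an ovary.

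The 4 OT uteruses did not share 1 pattern. OT3 was the highest of the 7 uteruses for 18 of the 29 genes, OT1 for 5 (Sprr1a, Ivl, Ly6d, Grhl3 and Sptssb), OT2 for Sbsn and Dmkn, and OT4 for Dsc2 and Pkp3. OT3 was above OT4 in 24 of the 29 genes. Against the OC mean the median log2 difference was 2.65 in OT3, 1.77 in OT4, 0.97 in OT1 and 0.69 in OT2. OT1 combined 14 genes more than 1 log2 unit above the OC mean with 4 genes more than 1 unit below it (Dsc2, Dsp, Pkp3 and Tmprss11a), while each of the other 3 OT uteruses had Tmprss11a alone that far below. The plot of each uterus against the OC mean shows how the genes pass from those led by OT3 to those led by OT1.

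**Figure D3:**
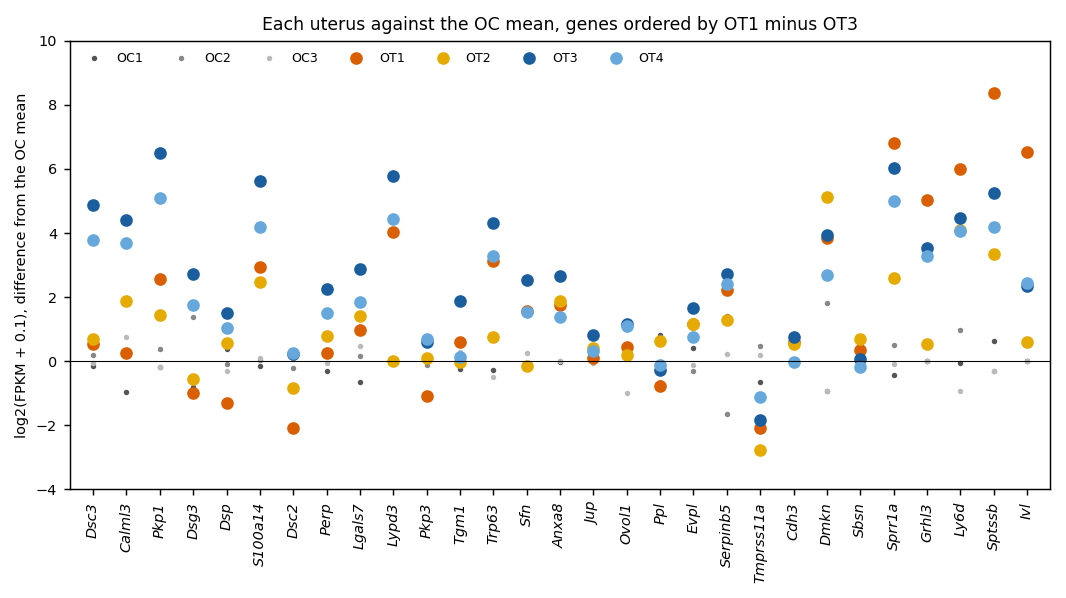
Difference of each uterus from the OC mean in log2(FPKM + 0.1) for the 29 genes over the filter (horizontal axis, ordered by OT1 minus OT3), with small grey points for the OC and large coloured points for the OT uteruses. The desmosomal genes Dsc3, Pkp1, Dsg3 and Dsp lie at the left, where OT3 and OT4 are above OT1, and Sprr1a, Grhl3, Ly6d, Sptssb and Ivl lie at the right, where OT1 is highest.

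Leaving out 1 uterus at a time, Perp, Serpinb5, Lypd3, Sfn and Calml3 lost the call at least 1 time, and Grhl3 fell under the filter without OT1. The number of genes called higher was 13 without OC1, 13 without OC2, 14 without OC3, 16 without OT1, 18 without OT2, 11 without OT3 and 12 without OT4, beside 16 with all 7. The size of the differences of low genes depended on the pseudocount: with 1 in place of 0.1, the log2 difference was 2.62 for Sptssb, 2.59 for S100a14, 1.73 for Dmkn, 1.65 for Pkp1 and -1.14 for Tmprss11a, and 0.85 for Serpinb5, which was then not called, nor was Evpl.

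Keratins were not among the 37 genes and are described beside them. They were measured in the same uteruses, and their list was chosen with earlier results of these data known. They are therefore no independent check. Of 11 keratins of stratified epithelia, 9 were tested in the uterus and 7 were called higher in OT, none of them with an adjusted p under 0.05 by limma (lowest 0.357). Krt5, the basal keratin, stood at 0.457, 2.81 and 0.357 FPKM in OC and 37.1, 11.7, 299 and 159 FPKM in OT uteruses. Krt13, the keratin of non-cornified stratified epithelia such as mouth and vagina, stood at 1.86, 5.103 and 0.423 FPKM in OC and 29.7, 19.6, 287 and 132 FPKM in OT uteruses. The summed level of the 11 keratins was 5.51 to 14.4 FPKM in OC and 45.0 to 861 FPKM in OT uteruses. Their order was OT3, OT4, OT1 and OT2, as for the median log2 difference of the 29 genes over the filter. By summed FPKM, the measure used for the keratins, the 37 genes were instead in the order OT3, OT1, OT4 and OT2. Those sums were 529, 417, 317 and 219 FPKM. Several genes of cornified epidermis were at or near 0. Krt1 was at most 0.256 FPKM in any uterus, and Lor, the major envelope protein of epidermis, at most 0.386 FPKM, in OC2. Flg, Flg2, Klk5, Klk7, Lce1a1, Lce1b and Lce3a of cornified epidermis were listed at 0 in all 14 libraries. Krt10, the suprabasal partner of Krt1, stood at 3.18 to 4.005 FPKM in OC and 2.52 to 4.89 FPKM in OT uteruses. The 5 hair-follicle keratins summed to at most 0.194 FPKM in a uterus.

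Of 30 further genes of the envelope and skin barrier, 6 were tested in the uterus, 2 were called higher and 10 were listed at 0 in all uteruses. The 2 called were Cdsn, corneodesmosin, at 0, 0.0727 and 0.162 FPKM in OC and 6.83, 0.706, 4.04 and 1.46 FPKM in OT uteruses, and Cers3, the ceramide synthase of barrier lipids. Sprr2f, an estrogen-induced relative of Sprr1a in the uterine epithelium, had the highest level of the 30, at 93.96, 17.1 and 9.75 FPKM in OC and 35.97, 59.6, 101 and 62.7 FPKM in OT uteruses. It was not called, and in OC1 it stood above 3 of the 4 OT uteruses. Of 12 further squamous regulators, 10 were tested and 1 was called higher, Zfp750, a p63 target needed for terminal differentiation, at 0.177, 1.05 and 0.277 FPKM in OC and 1.18, 2.65, 4.47 and 2.49 FPKM in OT uteruses.

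Markers of other cells and positions were high in some of the same libraries. The 4 uroplakins of urothelium summed to 5.10 to 8.29 FPKM in OC uteruses and to 157, 25.3, 5.15 and 4.43 FPKM in OT1 to OT4. Upk3a was listed at 0 in 6 uteruses and stood at 48.7 FPKM in OT1, and Upk2 was at 0 in OT2, OT3 and OT4 and stood at 16.2 FPKM in OT1, the library that was highest for Sprr1a, Ivl, Ly6d, Grhl3 and Sptssb. None of the 4 uroplakins was called. In OT3 and OT4, where Pkp1 and Calml3 were high, Upk2 and Upk3a were at 0, but Upk1a (1.059 and 1.044 FPKM) and Upk1b (4.094 and 3.387 FPKM) were not. Trp63 did not separate these libraries from OT1, at 4.396 FPKM in OT1 beside 4.902 FPKM in OT4.

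The 4 mesothelial markers summed to 74.6 to 79.7 FPKM in OC uteruses and to 157, 173, 70.8 and 64.9 FPKM in OT1 to OT4, with none called. Msln, mesothelin, stood at 27.4, 43.2, 9.49 and 4.93 FPKM in OT uteruses beside 8.38, 7.48 and 11.7 FPKM in OC, high in OT2, the library with the highest Dmkn, and in OT1. All 8 adipocyte markers were called higher in OT uteruses, and their sum was 63.5 to 249 FPKM in OC and 11501, 1230, 2238 and 1213 FPKM in OT1 to OT4. The 6 smooth muscle genes summed to 7753 to 9086 FPKM in OC and 9555 to 14468 FPKM in OT uteruses, with none called.

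The 10 genes of simple epithelium summed to 468 to 754 FPKM in OC and 340 to 569 FPKM in OT uteruses, and 1 was called lower, the tight junction gene Cldn3. The 6 gland genes summed to 203 to 386 FPKM in OC uteruses and to 32.0, 395, 260 and 283 FPKM in OT1 to OT4, with none called and OT1 lowest. The 5 genes of ciliated and oviduct cells summed to 91.8 to 255 FPKM in OC and 91.6 to 173 FPKM in OT uteruses, with none called. Hoxa13, a homeobox gene of the most caudal reproductive tract, was called higher, at 0.443, 0.609 and 1.98 FPKM in OC and 6.7, 0.958, 7.55 and 2.47 FPKM in OT uteruses, whereas Hoxd13 was 0 except for 0.140 FPKM in OT1. Hoxa10, Hoxa11 and Hoxd10 of the uterine body were each lower in all 4 OT than in all 3 OC uteruses and none was called. OT3 and OT1 had the highest Hoxa13. The part of these other cells and positions in the differences of the 37 genes was not tested.

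**Figure D4:**
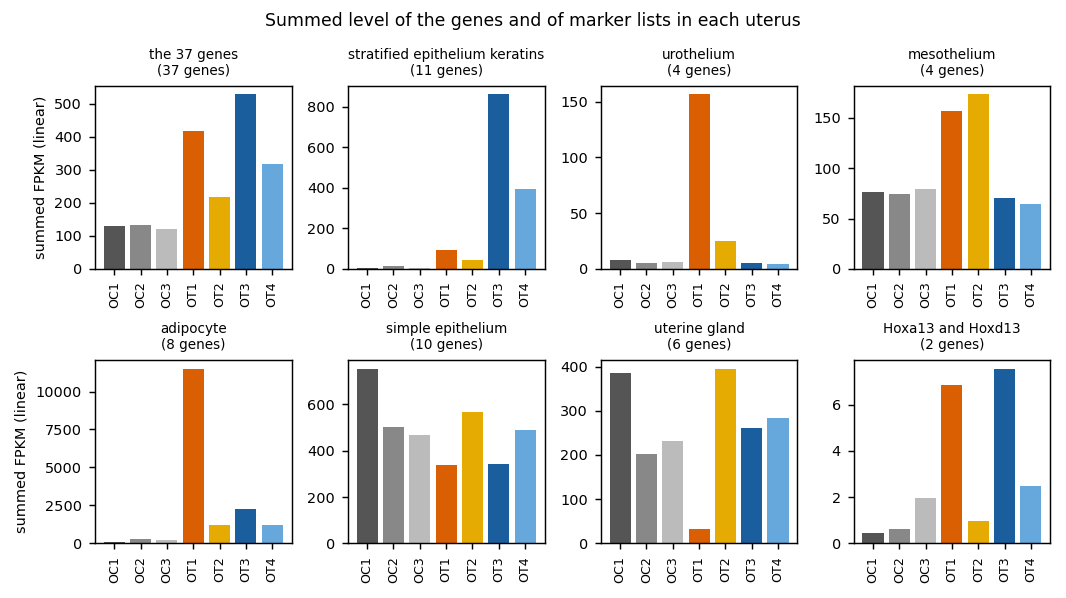
Summed FPKM (linear axis from 0, a separate scale for each panel) of the 37 genes and of 7 marker lists in each of the 7 uteruses. The keratins are highest in OT3 and OT4, the uroplakins and adipocyte markers in OT1, the mesothelial markers in OT1 and OT2, and the gland genes are lowest in OT1.

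Where these genes are expressed without AMSC-CM was asked by comparing the 3 OC uteruses with the 3 OC ovaries. The OC uteruses were used in choosing the genes, so the values are a description, no p-value is given for the genes and nothing is read from the counts. Low OC uterus values favour a gene's being listed and its being higher in the ovary. Dmkn and Trp63 passed the filter through the ovaries alone, and Sprr1a and Dsg3 through the uteruses alone. Here a call needed a change of 2-fold or more and an adjusted p under 0.05 with limma. Of the 20 genes over the filter, 4 were higher in the uterus, where 9.33% of all 14459 genes were, 5 were higher in the ovary, where 10.0% were, and 11 were not called. The median log2 difference, uterus minus ovary, was 0.41 beside -0.01 over all genes.

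The 5 genes higher in the ovary were Sbsn, Dmkn, Ly6d, Lgals7 and Anxa8. Sbsn stood at 51.1, 45.2 and 48.1 FPKM in OC ovaries and 8.02, 9.904 and 9.52 FPKM in OC uteruses, a log2 difference of -2.39 (SE 0.10). It was the most abundant of the 37 genes in the ovary, and the organs were far apart. Dmkn stood at 11.9, 12.4 and 6.43 FPKM in OC ovaries and 0, 0.572 and 0 FPKM in OC uteruses, with a log2 difference of -5.72 (SE 0.76). Ly6d, Lgals7 and Anxa8 differed by -2.32 (SE 0.44), -2.02 (SE 0.29) and -1.42 (SE 0.16) on the log2 scale. Ly6d stood at 6.18, 5.89 and 7.31 FPKM in OC ovaries, Lgals7 at 8.09 to 9.62 and Anxa8 at 5.74 to 7.88 FPKM. Set beside these, the OT uteruses lay above the OC ovaries for Ly6d, within or above their range for Anxa8, on both sides of it for Lgals7 and below it for Sbsn, and this difference was not tested.

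The 4 genes higher in the OC uterus were Tmprss11a, with a log2 difference of 2.29 (SE 0.61), Pkp3, 1.45 (SE 0.21), Sprr1a, 1.42 (SE 0.38), and Ppl, 1.05 (SE 0.35). Tmprss11a stood at 0.109, 0.771 and 0.719 FPKM in OC ovaries, below each OC uterus. The same OC uterus values enter its difference from the OT uteruses, so these differences are not independent. Pkp3 stood at 1.27, 1.86 and 1.91 FPKM in OC ovaries and 4.67, 4.31 and 5.14 FPKM in OC uteruses. Ppl lost its call without any 1 mouse, Tmprss11a and Sprr1a lost it without mouse 2 or 3, and Sprr1a was no longer called when the mouse was added as a replicate block, which left 3 of the 4. Trp63 was not called, at 0.929, 0.775 and 0.754 FPKM in OC ovaries and a log2 difference of -0.83.

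The list was chosen on the uterus. In the ovary, OT against OC, 0 of the 17 genes tested were called, beside 0.451% of all 14415 tested genes in either direction. For 0 of the 17 did the OT and OC ovaries not overlap, beside 5.91% of all genes, and 0 had an unadjusted p under 0.05 by limma. The log2 differences ran from -0.40 (Calml3, SE 0.28) to 0.36 (Pkp3, SE 0.25), with a median of -0.02 beside -0.01 over all genes. Across the 17 genes the 95% intervals lay between -1.05 and 0.94.

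Sbsn stood at 51.1, 45.2 and 48.1 FPKM in OC and 32.8, 71.1, 40.5 and 44.2 FPKM in OT ovaries. OT1 was the lowest and OT2 the highest of the 7, so the OT ovaries enclosed the OC ovaries, and the log2 difference was -0.09 (95% interval -0.60 to 0.42). Jup stood at 32.1, 32.7 and 34.3 FPKM in OC and 37.6, 36.2, 29.9 and 34.1 FPKM in OT ovaries, the narrowest spread of these most abundant genes, with a log2 difference of 0.06 (95% interval -0.14 to 0.25). Dsp stood at 13.5, 10.9 and 12.4 FPKM in OC and 16.4, 11.4, 9.297 and 13.5 FPKM in OT ovaries, with a log2 difference of 0.02 (95% interval -0.39 to 0.43). Ovary and uterus of OT3 were at opposite ends for Dsp and Jup, lowest of the ovaries and highest of the uteruses.

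Other genes of the list also overlapped between OC and OT ovaries. Trp63 stood at 0.929, 0.775 and 0.754 FPKM in OC and 0.857, 0.7398, 0.616 and 0.511 FPKM in OT ovaries, a log2 difference of -0.25 (95% interval -0.92 to 0.42). Ly6d stood at 6.18, 5.89 and 7.31 FPKM in OC and 3.97, 15.6, 5.94 and 4.15 FPKM in OT ovaries, where OT2 alone stood above the controls, and its log2 difference was -0.04 (95% interval -1.01 to 0.93). Perp differed by -0.14 (95% interval -0.49 to 0.21) and Sfn by 0.21 (95% interval -0.14 to 0.55) on the log2 scale. Sprr1a was under the filter in the ovary, at 0.451, 0.238 and 0.452 FPKM in OC and 0, 0.195, 0.283 and 0 FPKM in OT ovaries. With no filter on low values it was called lower in OT ovaries, the only one of 32 genes then tested. Of the 20 genes under the filter, Sprr1b, Sprr3, Cnfn, Dsg1a and Krtdap were listed at 0 in all 7 ovaries.

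**Figure D5:**
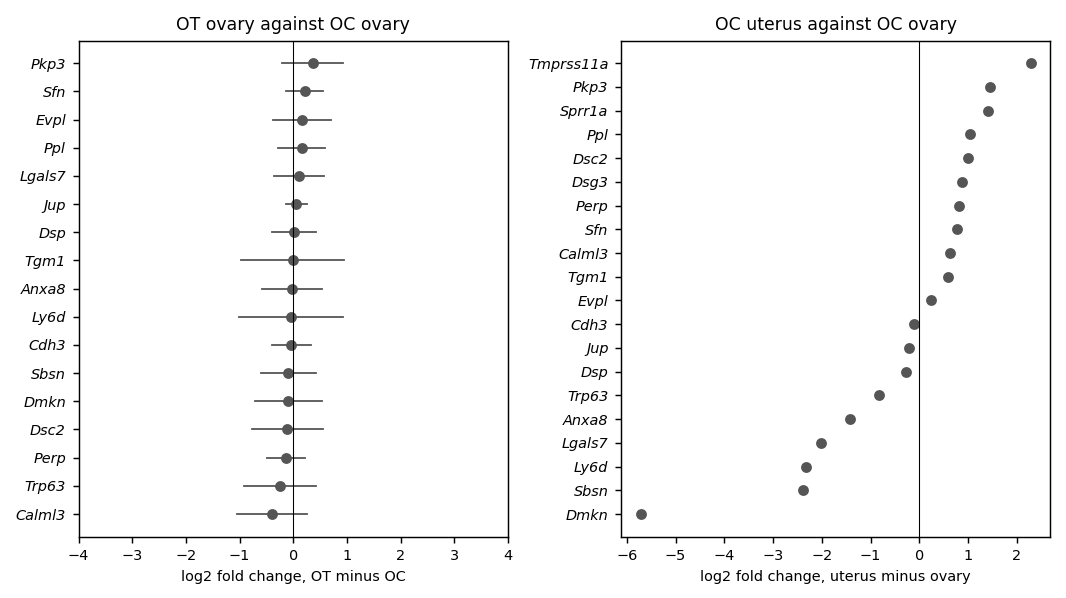
Log2 fold changes from limma (points) for the 17 genes tested between OT and OC ovaries (left, with 95% intervals as lines) and, as a description without intervals, for the 20 genes over the filter between OC uteruses and OC ovaries (right). All 17 points on the left lie between -0.40 and 0.36, and on the right the points run from -5.72 (Dmkn) to 2.29 (Tmprss11a).

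The summed levels of the lists of stratified epithelium and urothelium overlapped between OC and OT ovaries. The 11 keratins of stratified epithelium summed to 2.51 to 3.55 FPKM in OC and 0.652 to 4.48 FPKM in OT ovaries, the 4 uroplakins to 22.8 to 27.3 and 21.9 to 34.1 FPKM, and Hoxa13 was listed at 0 in all 7. In the adipocyte list 4 of 8 genes were called higher in OT ovaries, and its sums, 146 to 259 FPKM in OC and 190 to 1728 FPKM in OT ovaries, overlapped too. Of the 30 further barrier genes 1 was called in the ovary, Cdsn, at 0.133, 0.209 and 0.194 FPKM in OC and 1.65, 0.846, 0.329 and 0.796 FPKM in OT ovaries, a log2 difference of 1.69 (SE 0.51, adjusted p = 0.997 by limma). Cdsn was thus at low level in the ovary and higher in all 4 OT than in all 3 OC libraries of both organs. None of the other marker lists had a gene called between OT and OC ovaries.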

How the data were processed

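Ribosomal RNA-depleted, strand-specific total RNA libraries of 14 organs (3 OC and 4 OT ovaries, 3 OC and 4 OT uteruses) were analysed. The deposited unit is FPKM, computed by the authors with Cufflinks 2.2.1 after adapter removal (Skewer 0.2.2) and STAR 2.5 alignment against mm10. Library depth cannot be read from FPKM, and Cuffdiff, which needs reads, was not run. All 21853 identifiers matched GENCODE M21 (GRCm38).

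FPKM were used without further scaling. Differences were estimated with limma 3.58.1 in R 4.3.3 (lmFit, eBayes with a trend) on log2(FPKM + 0.1) for genes averaging 0.5 FPKM or more in the libraries fitted, and p-values were adjusted over all genes fitted. The pseudocount shrinks fold changes of low genes. The fits were tested on simulated data. Other steps used Python 3.11.15, numpy 2.4.6, pandas 2.3.3 and matplotlib 3.10.9.

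The 37 genes, the role groups and the marker lists were chosen with earlier results of these data known, and the cutoffs are those of the study. Every library value is given for the 2 most abundant uterus genes of each role, the 3 largest and 3 smallest uterus differences, and the 3 most abundant ovary genes. Other genes of the 37 were named to account for the list. Of the other lists, named genes were the most abundant, the called ones and the defining markers. The most abundant of the further squamous regulators are not reported here. The OC ovary and OC uterus of the same number share a mouse code in the labels, and their deviations from the group means correlated at 0.164, 0.089 and 0.075 over genes, so the mouse was also fitted as a block. Alternatives were a pseudocount of 1, other filters, scaling to the 75th percentile, robust eBayes, 1 fit of all 14 libraries, the replicate block and leaving out each library.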

Additional observations from a re-analysis of the deposited data

Results flagged for a closer look

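In the OT ovaries, 3 values stood apart from the other 3 past the limit of Dixon's test, measured as the gap to the nearest value over the whole range on log2(FPKM + 0.1). Dsc2 was 8.783 FPKM in OT3, a gap of 0.919 of the range above the others. Pkp3 was 3.094 FPKM in OT4, a gap of 0.832 above them, and Dmkn was 6.059 FPKM in OT3, a gap of 0.834 below them. These are 3 of 46 groups examined, and chance alone flags about 1 in 20 groups. On FPKM without the log, a scale tried after seeing the data, 6 groups passed the limit: Dsc2 and Pkp3 in the same ovaries, Ly6d in the OT2 ovary, and Ivl, Ly6d and Sptssb in the OT1 uterus, while Dmkn, with a gap of 0.791, did not.

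The log2 difference of Calml3 between OT and OC was 2.56 in the uterus and -0.40 in the ovary, 2.96 apart, with every OT library on opposite sides of the OC mean in the 2 organs. The difference between the organs was not tested, and the uterus value is one on which the genes were selected.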

How the results depend on the processing

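Counted over genes and alternatives, 392 uterus log2 differences moved by less than the residual SD of the gene's fit and 8 by more, all with a pseudocount of 1. Most alternatives could not have passed that limit. Leaving out 1 library cannot shift a difference that far, and other filters, robust eBayes and 1 fit of all 14 libraries leave it unchanged. The count is therefore no measure of stability: Lypd3, at 3.56, was 2.82 without OT3 and 4.75 without OT2. In the ovary 0 of the 37 genes were called in any setting but 1: with no filter, 1 was called lower, Sprr1a. With a pseudocount of 1, the ovary had 16 genes called higher (53 as reported) and 2 lower (12), while the uterus had 202 (316) and 57 (94). With no filter the ovary had 99 higher and 60 lower and the uterus 152 lower, and with a filter of 1 FPKM the ovary had 35 and 7. Leaving out 1 library, the ovary had 36 to 104 genes higher and 10 to 33 lower, the uterus had 52 to 189 lower, and 814 to 1332 (1349) genes were higher in OC uteruses than OC ovaries. From the list of 37, the number called higher in the OC uterus (4) was 2 with a pseudocount of 1 and 1 to 4 without 1 mouse. In the ovary the log2 difference of Sbsn ran from -0.31 to 0.06 (without OT1) and that of Dsp from -0.12 to 0.16, below 0 without OC2, OT1 or OT4. The cause was not tested.

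Same-numbered OC and OT mice share only a number: their deviations correlated at 0.331, 0.045 and 0.080 for ovaries and at 0.080, 0.001 and -0.027 for uteruses. With that number as a replicate block, and OT4 left out, 34 ovary genes and 238 uterus genes were called lower, and the ovary difference of Dsp was -0.02. FPKM hold no depth, so no counting error can be given for low values such as those of Ivl, Lypd3 or Grhl3.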

Other observations

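The ovary libraries also differed in Tmprss11a and in some genes of the uterus. Tmprss11a, the gene of the 37 that was lower in OT uteruses, stood at 0.109, 0.771 and 0.719 FPKM in OC ovaries and 0, 0.0446, 1.27 and 0.301 FPKM in OT ovaries. Hoxa10, of the uterine body, stood at 3.92, 53.4 and 27.7 FPKM in OC and 0.572, 6.09, 48.9 and 23.4 FPKM in OT ovaries, and Prss29, an endometrial gland protease, at 0.8504, 15.4 and 12.01 and 0.539, 0.9601, 22.1 and 5.23 FPKM. For all 3 genes OC2, OC3 and OT3 were the 3 highest ovaries and OC1, OT1 and OT2 the 3 lowest. Of the other gland genes, Prss28 had the same ovaries highest, but Foxa2, Ltf, Cxcl15 and Sox17 did not. Foxa2 was highest in OT4 and Cxcl15 in OC1. Ltf stood at 49.6 FPKM in OC3 and 47.6 in OT3, below OC1 at 73.8 and OT2 at 77.4. The smooth muscle genes summed highest in OC2, OT4 and OT3, at 2744, 2245 and 2121 FPKM, with OC3 at 1734 FPKM. Sprr2f, the estrogen-induced relative of Sprr1a, stood at 0.644, 4.88 and 0.6104 FPKM in OC and 0, 0.538, 8.99 and 4.28 FPKM in OT ovaries, with OC2, OT3 and OT4 highest. These genes were set side by side after their values were seen.

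Some further regulators of squamous cells stood above every OC uterus in OT1, OT3 and OT4 but not in OT2, and were not called. Grhl1, a relative of Grhl3, stood at 0.457, 0.834 and 1.004 FPKM in OC and 4.05, 0.726, 1.81 and 1.65 FPKM in OT uteruses, highest in OT1, as Grhl3 was. Tfap2a, a factor of basal keratinocytes, stood at 0, 0.0979 and 0.07201 FPKM in OC and 0.242, 0, 2.85 and 1.03 FPKM in OT uteruses, highest in OT3, as Trp63 was.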
